A study of Mus musculus with 11 samples.

Results

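The 10 proteins that follow mark glucagon-secreting pancreatic alpha cells at the cell surface or in what they secrete, and are described at the level of their mRNA. The genes were matched by symbol to the deposited table: Sstr2, Sstr3, Gria2, Gria3, Tm4sf4, Ttyh1, Cd36, Dpp4, Gc and Loxl4, which are 10 of the 53947 genes in it. Expression was measured in αTC1-6, an immortalised mouse line with alpha cell features. Mettl3 KD (4 libraries) and Mettl14 KD (4 libraries) targeted the gene for one or the other core protein of the enzyme complex that writes N6-methyladenosine (m6A) on mRNA. Scramble (3 libraries) was the non-targeting control. Protein levels are not measured by these libraries. The labels give no other genetic change or treatment. All cells were reverse transfected at 70% confluency and were harvested 72 h after knockdown for stranded mRNA libraries. The labels neither name the knockdown reagent nor say that replicates came from different cultures. The p-values therefore reflect scatter among these libraries, part or all of which may be technical. The model is a single tumour-derived line in culture, with no neighbouring beta or delta cells to supply insulin or somatostatin.

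Alpha cells release glucagon when blood glucose is low and are held back by somatostatin from neighbouring delta cells. Somatostatin acts through receptors coupled to inhibitory G proteins, and Sstr2 is the main one on alpha cells of rodents. Glutamate acts in the opposite sense through AMPA receptors, ion channels assembled from the subunits Gria1 to Gria4, and promotes glucagon release. Tm4sf4, Ttyh1, Dpp4, Gc and Loxl4 are better known as genes enriched in alpha cells than for a settled role in them. The m6A mark itself was not measured in these libraries.

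The m6A writer complex methylates adenosines most often within GGACU, which is written GGACT in DNA. GGACT was counted on the sense strand of the longest complete coding transcript of each gene in GENCODE M21 (build GRCm38). Of 12195 tested genes with such a transcript, 92.5% held at least 1 copy, with a median of 1.04 per kilobase. Density was below that median in 7 of the 10 markers. Sstr2 had the lowest, with 1 copy and 0.467 per kilobase, and Gc the highest, with 3 copies and 1.67 per kilobase. The copy nearest to the last coding base is shown with 10 bases on either side for the 5 markers that changed in at least 1 comparison below, with GGACT in capitals, written 5′ to 3′ on the strand of the gene.
Tm4sf4: taatgtgtctGGACTacttgtaact
Sstr2: ctgaagaaaaGGACTcgccacgtca
Gria2: gtgtttgtgaGGACTacggcagaag
Sstr3: ccctgcacagGGACTgctaaggagc
Ttyh1: gtctgcacaaGGACTatggctcagc
The Tm4sf4 window lay in the 3′ UTR at chr3:57441573-57441597 on the + strand, 495 bases after the last coding base, and was the gene's only copy. The Sstr2 window, also the only copy, lay in the 3′ UTR at chr11:113625856-113625880 on the + strand, 503 bases after the last coding base. The other windows were coding: Gria2 at chr3:80692448-80692472 on the − strand, 535 bases before the last coding base, and Sstr3 at chr15:78539321-78539345 on the − strand, 73 bases before it. The Ttyh1 window crossed an exon junction on chromosome 7, 225 bases before the last coding base, and therefore has no single interval. A match is a description of letters and not a methylated site, and the copies number 1 in Tm4sf4 and Sstr2, 3 in Ttyh1, 5 in Sstr3 and 7 in Gria2.

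The libraries held 19576632 to 22406527 estimated counts each. Mettl3 itself fell by 1.48 ± 0.08 (SE) on the log2 scale in Mettl3 KD (edgeR quasi-likelihood test, Benjamini-Hochberg adjusted p = 6.85e-11), and Mettl14 fell by 0.78 ± 0.06 in Mettl14 KD (adjusted p = 8.78e-09). By the same test, Mettl14 was higher in Mettl3 KD, by 0.217 ± 0.055 (adjusted p = 0.00494). Mettl3 was not called in Mettl14 KD, at 0.047 ± 0.072 (adjusted p = 0.692). All 9 alpha cell markers of a separate list, among them Gcg and Ttr, were tested, and their summed level was 38818 to 40543 CPM (counts scaled to a common library total) in Mettl3 KD, 43772 to 46159 CPM in Mettl14 KD and 34991 to 43281 CPM in scramble. Most hormone genes of other islet cells were near 0, with at most 2 counts of Ins1, 1 of Ins2 and 3 of Sst in any library and none of Ppy. Iapp, also a hormone gene of beta cells, was low but detected. It averaged 0.736 CPM in Mettl3 KD, 0.627 CPM in Mettl14 KD and 0.87 CPM in scramble. The beta cell factor Pdx1 had no counts. Other genes of the same lists were expressed: Nkx6-1 averaged 51.5 CPM in Mettl3 KD, 52.2 CPM in Mettl14 KD and 60.8 CPM in scramble, and Rbp4 averaged 2132 CPM in Mettl3 KD, 2062 CPM in Mettl14 KD and 2113 CPM in scramble. They made up most of the beta cell sum (8 genes; 50.5 to 54.4 CPM in Mettl3 KD, 50.2 to 56.1 CPM in Mettl14 KD, 56 to 73.6 CPM in scramble) and of the delta and PP cell sum (5 genes; 2100 to 2160 CPM in Mettl3 KD, 1971 to 2177 CPM in Mettl14 KD, 2032 to 2208 CPM in scramble). None of the 4 tested genes of these lists was called against scramble. Of all 14133 tested genes, 31.3% were called in Mettl3 KD and 20.9% in Mettl14 KD. Scramble replicate 2 stood apart: 11 genes of lung and blood summed to 3.97 to 6.5 CPM in Mettl3 KD, 2.61 to 5.55 CPM in Mettl14 KD, and 4.48, 121 and 3.18 CPM in scramble replicates 1, 2 and 3. Its counts also lay farthest from its own group, with a chi-square per degree of freedom of 15.3 and 13.8 against the other scramble libraries and 2.93 between those. Where it moved a marker's result, the value without it is given. The beta cell sum in Mettl3 KD lay below every scramble library. The summed acinar and ductal level did so in both knockdowns, at 6.91 to 8.54 CPM in Mettl3 KD, 7.09 to 10.3 CPM in Mettl14 KD and 10.8 to 13.6 CPM in scramble. Of its 6 genes 2 were tested and 1, the keratin Krt7, fell in both knockdowns, while the acinar enzyme Prss2 had no counts. The sum of the 4 immune genes lay below every scramble library in Mettl14 KD, at 1.2 to 1.72 CPM in Mettl14 KD and 2.13 to 24.1 CPM in scramble. Of these genes 2 were tested and 1, the macrophage gene Cd68, fell in Mettl14 KD, at a log2 fold change of -0.80 ± 0.21 (edgeR adjusted p = 0.00883), while Adgre1 had no counts in Mettl14 KD and at most 6 in any library. The part of these differences in the results was not tested.

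The markers did not move as a group. Against scramble, Tm4sf4 rose and Ttyh1 fell in each knockdown, Sstr2 rose and Sstr3 fell in Mettl3 KD, and Gria2 rose in Mettl14 KD. Gria3 and Cd36 did not pass the test in any comparison. Dpp4, Loxl4 and Gc were at or near 0 in every library and were not tested, so the label of an alpha cell marker does not hold for these 3 at the mRNA level in this line. The secreted part of the set, Gc and Loxl4, was thus represented by no more than 2 counts in any library. Because both knockdowns were set against the same 3 scramble libraries, their fold changes are not independent of each other.

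In Mettl3 KD against scramble, 4 of the 7 tested markers were called at an adjusted p under 0.05, 2 higher and 2 lower, where 31.3% of all 14133 tested genes were called (15.5% higher and 15.8% lower). The 4 were also the markers whose groups did not overlap, which held for 35.5% of all genes (17.5% higher and 17.9% lower). In Mettl14 KD against scramble, 3 of 7 were called, 2 higher and 1 lower, where 20.9% of all genes were called (10.1% higher and 10.8% lower). There 4 of 7 did not overlap, 3 higher and 1 lower, against 28.9% of all genes (14.4% higher and 14.6% lower). In Mettl3 KD against Mettl14 KD, 2 of 7 were called, both lower in Mettl3 KD, where 8.1% of all genes were called (3.66% higher and 4.44% lower). Those 2 were the ones that did not overlap, against 17.6% of all genes (8.43% higher and 9.21% lower). The median log2 fold change of the 7 was -0.08, 0.03 and -0.10 in these 3 comparisons, against medians between -0.004 and 0.002 over all genes tested. With 7 genes these counts say little of the set, and the account that follows is by gene. In this bulk RNA, fewer cells expressing a gene and less RNA per cell cannot be told apart.

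**Figure D1:**
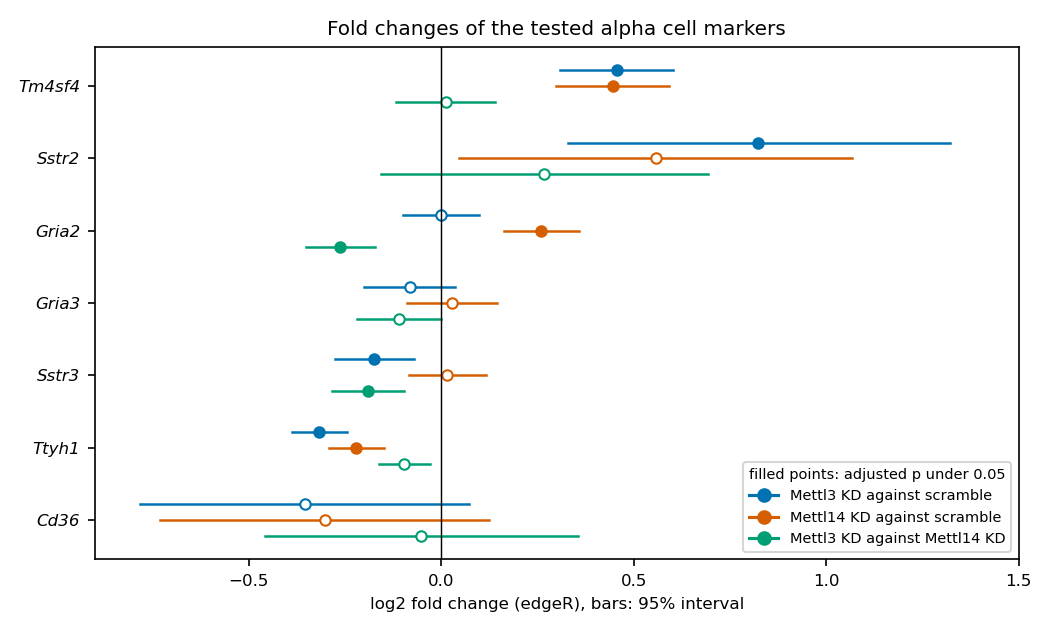
Log2 fold changes of the 7 tested markers (x axis) with 95% intervals from edgeR, for Mettl3 KD against scramble, Mettl14 KD against scramble and Mettl3 KD against Mettl14 KD. Filled points passed an adjusted p under 0.05; Tm4sf4 and Ttyh1 are filled in both knockdowns, on opposite sides of 0.

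Among the receptors for somatostatin, Sstr2 and Sstr3 differed both in level and in the direction of their difference. Sstr2 had 1.12, 1.12, 0.892 and 1.07 CPM in Mettl3 KD, 0.95, 0.863, 0.72 and 0.948 CPM in the Mettl14 KD libraries, and 0.634, 0.55 and 0.583 CPM in scramble. Every knockdown library lay above every scramble library. These levels rest on few reads, 20 to 25 counts per library in Mettl3 KD, 16 to 21 in Mettl14 KD and 11 to 14 in scramble. Sstr2 rose in Mettl3 KD, by a log2 fold change of 0.82 ± 0.24 (SE; 95% interval 0.33 to 1.32; 1.77-fold; edgeR quasi-likelihood test, adjusted p = 0.0117). DESeq2 ended this call, at 0.83 ± 0.35 and adjusted p = 0.0606, and leaving out any 1 library kept it, with adjusted p between 0.0117 and 0.0411. In Mettl14 KD the log2 fold change was 0.56 ± 0.25 (0.05 to 1.07; adjusted p = 0.141 by the same test), which did not pass. The knockdowns were not told apart for Sstr2, with a difference of 0.27 ± 0.20 (-0.16 to 0.69; Mettl3 KD against Mettl14 KD).

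Sstr3, a somatostatin receptor that localises to primary cilia, had 32.4, 30.1, 31.6 and 30.3 CPM in Mettl3 KD, 35.1, 36.7, 37.0 and 33.2 CPM in the Mettl14 KD libraries, and 35.2, 33.9 and 36.0 CPM in scramble. All 4 Mettl3 KD libraries lay below the other 7, and the Mettl14 KD range covered the scramble range. It fell in Mettl3 KD by 0.17 ± 0.05 on the log2 scale (95% interval -0.28 to -0.07; edgeR quasi-likelihood test, adjusted p = 0.00959). Against scramble the Mettl14 KD value was 0.02 ± 0.05 (-0.09 to 0.12; adjusted p = 0.856 by edgeR). Set against Mettl14 KD, the Mettl3 KD libraries were lower by a log2 fold change of -0.19 ± 0.05 (-0.28 to -0.10; adjusted p = 0.0115 by edgeR), which is the test of the difference between the knockdowns. Both calls held when any 1 library was left out, with adjusted p up to 0.0444 against scramble and 0.0492 against Mettl14 KD.

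The other somatostatin receptors were nearly silent, with at most 7 counts of Sstr1, 6 of Sstr4 and 1 of Sstr5 in any library. Of 22 genes for somatostatin receptors and their inhibitory G protein signalling, Sstr2 and Sstr3 included, 16 were tested. In Mettl3 KD 2 rose and 4 fell, where 15.5% of all tested genes rose and 15.8% fell. In Mettl14 KD 1 rose and 2 fell, where 10.1% of all tested genes rose and 10.8% fell. Kcnj3, a subunit of the potassium channel that inhibitory G proteins open, rose in both, by 0.28 ± 0.07 in Mettl3 KD and 0.29 ± 0.07 in Mettl14 KD (log2; adjusted p = 0.00262 and 0.0039 by edgeR). Its level was 18.5 ± 1.28 CPM in Mettl3 KD, 18.6 ± 1.03 CPM in Mettl14 KD and 15.2 ± 0.396 CPM in scramble (SD, n = 4, 4 and 3). The arrestin genes Arrb1 and Arrb2, whose products uncouple receptors from G proteins, fell in Mettl3 KD by 0.21 and 0.23 on the log2 scale. Gnaz, an inhibitory alpha subunit, fell by 0.20 in each knockdown, but neither call held without scramble replicate 2, at -0.13 in Mettl3 KD and -0.14 in Mettl14 KD, or with quality weights or the replicate block. Without that library 0 genes of the list fell in Mettl14 KD, and without Mettl14 KD replicate 4 likewise; the Arrb2 call in Mettl14 KD ended without any one of 7 of the libraries and under 6 of the 10 other alternatives. The main inhibitory subunit genes Gnai2 and Gnao1 averaged 96.6 and 123 CPM per kilobase of transcript in scramble and did not pass the test in either knockdown. Gnao1 was called in Mettl3 KD without scramble replicate 2, at -0.15, and Gnai2 without scramble replicate 3, at -0.12 in Mettl3 KD; in Mettl14 KD Gnai2 was called without scramble replicate 1 or 3, between -0.13 and -0.12.

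Of the AMPA receptor subunits, Gria2 and Gria3 were the ones expressed. Gria2, the subunit that makes the channel impermeable to calcium once its transcript is edited, had 48.1, 51.3, 53.6 and 52.7 CPM in Mettl3 KD, 60.4, 64.4, 61.5 and 60.4 CPM in the Mettl14 KD libraries, and 54.7, 48.0 and 51.6 CPM in scramble. The 4 Mettl14 KD libraries lay above all the others, and the Mettl3 KD range fell within the scramble range. It rose in Mettl14 KD by a log2 fold change of 0.26 ± 0.05 (95% interval 0.16 to 0.36; 1.2-fold; edgeR quasi-likelihood test, adjusted p = 0.000429). Leaving out 1 library at a time gave 0.21 to 0.31, the lowest of these without scramble replicate 2. Between Mettl3 KD and scramble the difference was -0.001 ± 0.05 (-0.10 to 0.10), an interval that excludes the size seen in Mettl14 KD. The test of Mettl3 KD against Mettl14 KD itself gave -0.26 ± 0.04 (-0.35 to -0.17; adjusted p = 0.000534 by edgeR).

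Gria3 stayed close to 20 CPM throughout. It had 18.1, 20.1, 19.2 and 20.1 CPM in Mettl3 KD, 20.4, 21.5, 21.7 and 19.9 CPM in the Mettl14 KD libraries, and 19.9, 20.6 and 20.9 CPM in scramble, and all 3 groups overlapped. Its log2 fold change was -0.08 ± 0.06 in Mettl3 KD (95% interval -0.20 to 0.04) and 0.03 ± 0.06 in Mettl14 KD (-0.09 to 0.15), with edgeR adjusted p of 0.289 and 0.764. Set against each other, Mettl3 KD and Mettl14 KD differed by -0.11 ± 0.05 (-0.22 to -0.002; adjusted p = 0.217). Gria1 had at most 12 counts and Gria4 at most 3 in any library. Gria2 shares 0.387% of its 31-base words with the transcripts of other genes, among them Gria3, Gria4 and Gria1. For Gria3 the share with the transcripts of other genes is 0.523%.

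**Figure D2:**
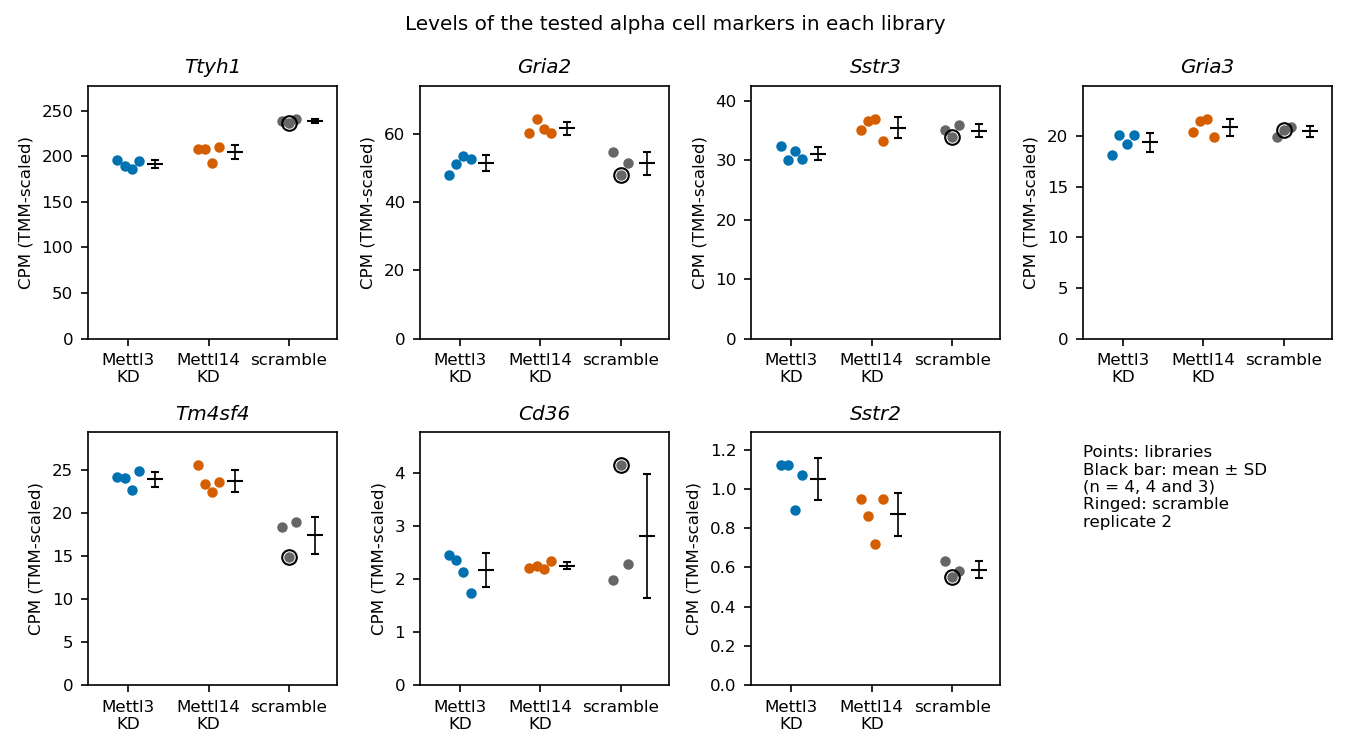
Level in CPM (y axis) of each tested marker in every library, with the group mean and SD as bars, for Mettl3 KD (n = 4), Mettl14 KD (n = 4) and scramble (n = 3). The Mettl14 KD libraries stand above the rest for Gria2, at 60.4 to 64.4 CPM, and the Mettl3 KD libraries below the rest for Sstr3, at 30.1 to 32.4 CPM.

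Around these subunits, 16 of 29 genes for ionotropic glutamate receptors and their partners were tested. In Mettl3 KD 1 rose and 4 fell, where 15.5% of all tested genes rose and 15.8% fell. In Mettl14 KD 1 rose (Gria2) and 4 fell, where 10.1% of all tested genes rose and 10.8% fell. The same 4 genes fell in both. Grin1, the obligate subunit of NMDA receptors, had 52.7 ± 1.36 CPM in Mettl3 KD, 62.3 ± 2.09 CPM in Mettl14 KD and 72.4 ± 2.90 CPM in scramble (SD, n = 4, 4 and 3). Its log2 fold change was -0.46 ± 0.04 in Mettl3 KD and -0.22 ± 0.04 in Mettl14 KD (edgeR adjusted p = 3.44e-08 and 0.000475), and Mettl3 KD lay below Mettl14 KD by -0.24 ± 0.04 (adjusted p = 0.000332). The kainate receptor subunit Grik5 was lower by -0.37 ± 0.05 in Mettl3 KD and by -0.30 ± 0.05 in Mettl14 KD. Both AMPA receptor auxiliary subunits that fell, Cacng7 and Cnih2, have a part in the trafficking and gating of the channel. For Cacng7 the log2 fold change was -0.31 ± 0.04 in Mettl3 KD and -0.20 ± 0.04 in Mettl14 KD, and for Cnih2 it was -0.45 ± 0.10 in Mettl3 KD and -0.57 ± 0.10 in Mettl14 KD. Without scramble replicate 2, Cnih2 stood at -0.31 in Mettl3 KD and -0.43 in Mettl14 KD and was still called. The single rise in Mettl3 KD was Pick1, which binds the tail of Gria2, at 0.18, and it was not called without scramble replicate 2, at 0.12. Another gene joined it without Mettl3 KD replicate 1 (Adarb1, the enzyme that edits the Gria2 transcript, at 0.20), and Pick1 was called in Mettl14 KD without scramble replicate 1, at 0.19.

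Tm4sf4, a tetraspanin-like protein of the L6 family with 4 membrane-spanning segments, was among the markers the one with higher levels in both knockdowns by test. It had 24.1, 24.0, 22.7 and 24.8 CPM in Mettl3 KD, 25.5, 23.3, 22.4 and 23.6 CPM in the Mettl14 KD libraries, and 18.3, 14.9 and 18.9 CPM in scramble. All 8 knockdown libraries lay above the 3 scramble libraries, of which replicate 2 was the lowest. Tm4sf4 rose by a log2 fold change of 0.46 ± 0.07 in Mettl3 KD (95% interval 0.31 to 0.60; 1.37-fold; edgeR quasi-likelihood test, adjusted p = 4.82e-05) and by 0.44 ± 0.07 in Mettl14 KD (0.30 to 0.59; 1.36-fold; adjusted p = 0.000119). Without scramble replicate 2 the values were 0.36 in Mettl3 KD and 0.35 in Mettl14 KD, with adjusted p of 3.18e-05 and 9.03e-05. Mettl3 KD and Mettl14 KD differed by 0.01 ± 0.06 (-0.12 to 0.14). Its neighbour on chromosome 3, the family member Tm4sf1, had 6 to 19 counts per library and did not pass the test in any comparison, and Tm4sf5, Tm4sf19 and Tm4sf20 had at most 1 count in any library.

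Ttyh1, a membrane protein of the Tweety family that is best known from brain, was the most abundant marker and the one that fell in both knockdowns. It had 196, 189, 186 and 195 CPM in Mettl3 KD, 208, 208, 193 and 210 CPM in the Mettl14 KD libraries, and 239, 236 and 241 CPM in scramble. All 8 knockdown libraries lay below the 3 scramble libraries, and Mettl14 KD replicate 3 lay within the range of Mettl3 KD. Ttyh1 fell by 0.32 ± 0.03 in Mettl3 KD (95% interval -0.39 to -0.25; edgeR quasi-likelihood test, adjusted p = 6.48e-07) and by 0.22 ± 0.03 in Mettl14 KD (-0.29 to -0.15; adjusted p = 8.77e-05), both on the log2 scale. The difference of Mettl3 KD against Mettl14 KD was -0.10 ± 0.03 (-0.16 to -0.03; adjusted p = 0.0698) and was not called; it was called without Mettl14 KD replicate 3, at -0.12 and adjusted p = 0.0253, and without scramble replicate 2, at -0.10 and adjusted p = 0.0114. The gene is overlapped on the opposite strand by 9430041J12Rik and D030047H15Rik. Of its 31-base words, 8.37% occur as the reverse complement in transcripts of other genes, among them both of these and Colec12. In the same orientation, 2.54% occur in transcripts of other genes, among them D6Wsu163e, Trim24 and Gm32552. It is not stated whether the counting used the strand, so reads of the opposite-strand transcripts could be part of the Ttyh1 values. Use of the strand would not separate the words shared in the same orientation.

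The other Tweety genes, Ttyh2 and Ttyh3, were tested too, so that 2 of the 3 fell in Mettl3 KD and all 3 in Mettl14 KD. Of all tested genes, 15.8% fell in Mettl3 KD and 10.8% in Mettl14 KD. Ttyh2 had 67.9 ± 1.08 CPM in Mettl3 KD, 62.0 ± 1.72 CPM in Mettl14 KD and 76.3 ± 1.40 CPM in scramble (SD, n = 4, 4 and 3). Its log2 fold change was -0.17 ± 0.03 in Mettl3 KD and -0.30 ± 0.03 in Mettl14 KD (edgeR adjusted p = 0.000946 and 3.15e-06). Unlike Ttyh1, it was higher in Mettl3 KD than in Mettl14 KD, by 0.13 ± 0.03 (adjusted p = 0.0164), a call that ended without replicate 4 of either knockdown, between 0.12 and 0.13. Ttyh3 was called lower in Mettl14 KD at -0.12, a call lost without any one of 6 of the libraries and under DESeq2, limma-voom with and without quality weights, only the groups compared and the replicate block, which leaves 2 of the 3 genes lower. It was higher in Mettl3 KD than in Mettl14 KD by 0.14 ± 0.04 (adjusted p = 0.0269), a call lost without any one of 5 of the libraries and with the replicate block.

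**Figure D3:**
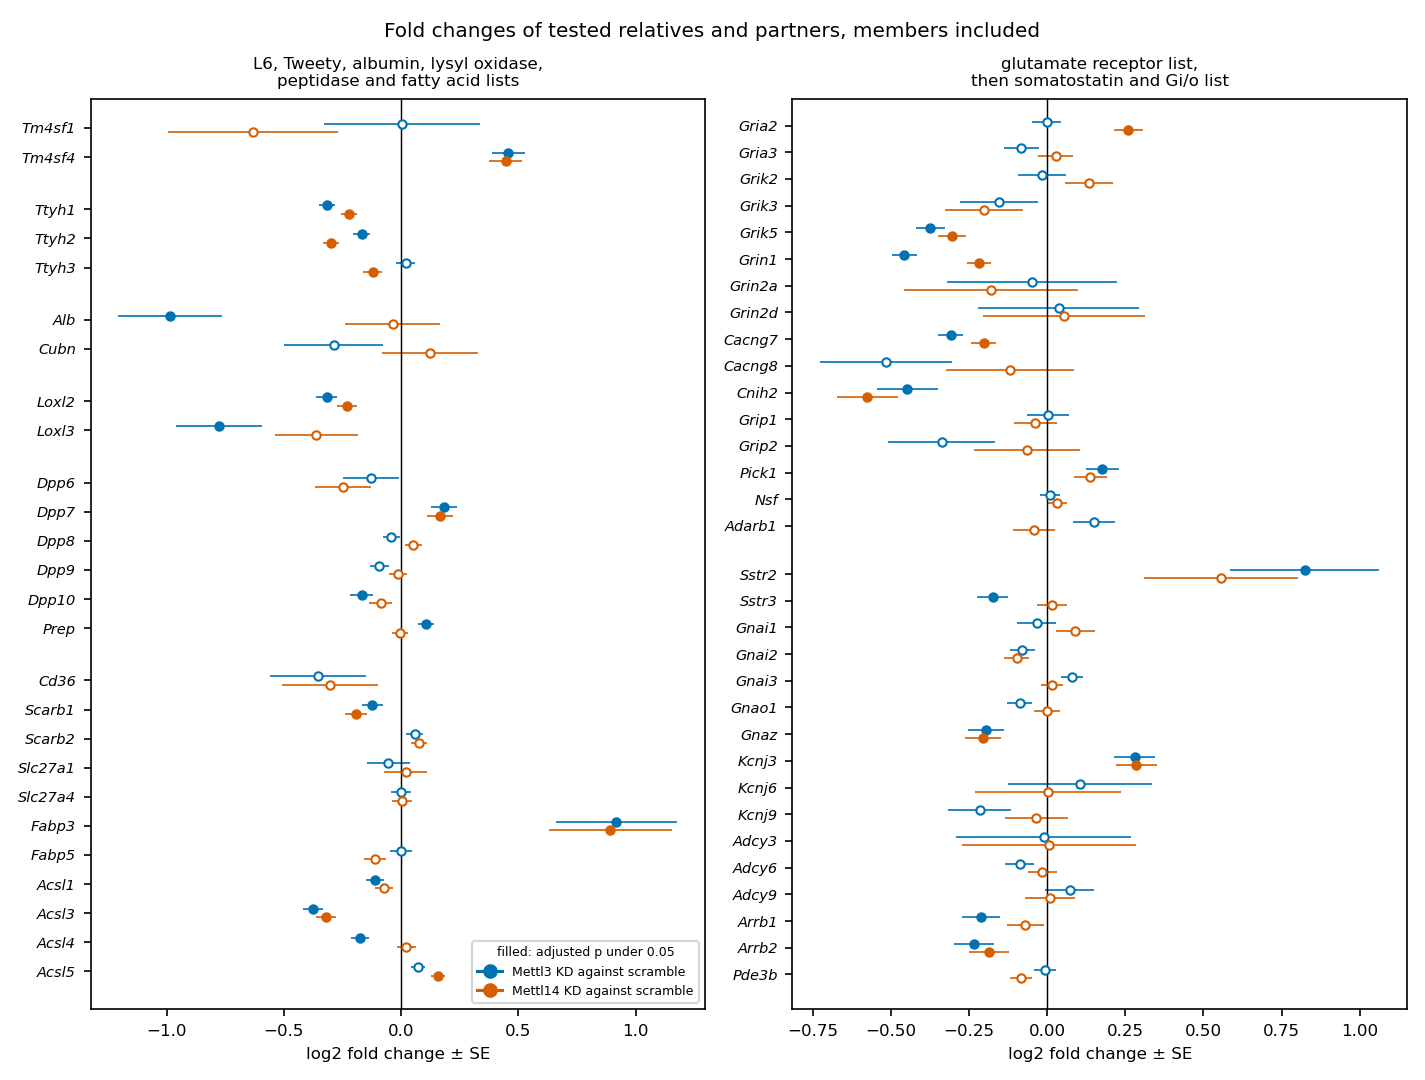
Log2 fold changes of the tested relatives and partners of the markers (x axis) for Mettl3 KD and Mettl14 KD against scramble. Bars are ± SE from edgeR, and filled points had an adjusted p under 0.05. Grin1, Grik5, Cacng7 and Cnih2 lie to the left of 0 in both knockdowns and Kcnj3 to the right of 0.

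The markers with calls in both knockdowns, Tm4sf4 and Ttyh1, were set beside all 10333 other genes with a mean of at least 5 CPM by the root mean square difference in log2 CPM over the 11 libraries, after each gene's scramble mean was subtracted. Nearest to Tm4sf4 were Coq7 at 0.062, Parl at 0.063 and Ndufb6 at 0.073. Nearest to Ttyh1 were Thra at 0.034, Dut at 0.041 and Dlg4 at 0.043. These are likenesses of pattern over 11 libraries and are given with no test.

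Cd36, a scavenger receptor that takes up long-chain fatty acids and is abundant on endothelial cells, macrophages and adipocytes, did not pass the test in any comparison. It had 2.46, 2.37, 2.14 and 1.74 CPM in Mettl3 KD, 2.22, 2.25, 2.20 and 2.35 CPM in the Mettl14 KD libraries, and 1.99, 4.15 and 2.29 CPM in scramble. Scramble replicate 2 was the one library above 2.46 CPM, and the other 10 overlapped. The log2 fold change was -0.36 ± 0.20 in Mettl3 KD (95% interval -0.78 to 0.07; edgeR adjusted p = 0.201) and -0.30 ± 0.20 in Mettl14 KD (-0.73 to 0.12; adjusted p = 0.318). It depended on which scramble library was left out. Without replicate 2 it was 0.02 in Mettl3 KD and 0.08 in Mettl14 KD, and without replicate 1 it was -0.55 in Mettl3 KD and called (adjusted p = 0.0442). The 3 endothelial genes Pecam1, Cdh5 and Kdr summed to 0.447 to 2.19 CPM in Mettl3 KD, 0.495 to 0.813 CPM in Mettl14 KD, and 0.725, 6.84 and 0.717 CPM in scramble replicates 1, 2 and 3. The 4 immune genes summed to 2.05 to 2.58 CPM in Mettl3 KD, 1.2 to 1.72 CPM in Mettl14 KD, and 2.13, 24.1 and 2.51 CPM in those scramble libraries, so that both lists peaked in replicate 2 as Cd36 did. Of these 4, Ptprc, Lyz2 and Adgre1 were highest there, with Lyz2 alone at 19.4 CPM. Cd68 was not, at 1.54, 1.6 and 1.7 CPM in scramble replicates 1, 2 and 3. The 11 lung and blood genes also peaked there, at 121 CPM against 4.48 and 3.18 CPM in scramble replicates 1 and 3. Adipocyte genes were at 0.431 CPM or less in every library. The part of these lists in the Cd36 value was not tested.

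Of 14 genes for fatty acid uptake and activation, Cd36 included, 11 were tested. In Mettl3 KD 1 rose and 4 fell, where 15.5% of all tested genes rose and 15.8% fell. In Mettl14 KD 2 rose and 2 fell, where 10.1% of all tested genes rose and 10.8% fell. Acsl3, which activates fatty acids for storage in lipid droplets, had 35.6 ± 0.841 CPM in Mettl3 KD, 37.0 ± 1.0 CPM in Mettl14 KD and 46.2 ± 1.93 CPM in scramble (SD, n = 4, 4 and 3). Its log2 fold change was -0.38 ± 0.04 in Mettl3 KD and -0.32 ± 0.04 in Mettl14 KD (edgeR adjusted p = 1.35e-06 and 1.71e-05). Acsl4, which prefers polyunsaturated fatty acids, fell in Mettl3 KD by 0.18 on the log2 scale and also differed between the knockdowns, by -0.20 ± 0.04 (adjusted p = 0.00126). The fatty acid binding protein Fabp3 rose in both, by 0.92 ± 0.26 in Mettl3 KD and 0.89 ± 0.26 in Mettl14 KD, with levels of 1.29 ± 0.311 CPM in Mettl3 KD, 1.27 ± 0.246 CPM in Mettl14 KD and 0.679 ± 0.113 CPM in scramble. Its Mettl14 KD call ended without scramble replicate 2 or Mettl14 KD replicate 4, at 0.77 in each case, and with quality weights or the replicate block, at 0.79 and 0.78. Acsl5 rose in Mettl14 KD by 0.16 ± 0.03 (adjusted p = 0.000825). The receptor Scarb1 fell in Mettl14 KD, at -0.19. In Mettl3 KD, Scarb1 and Acsl1 were called lower at -0.12 and -0.11, calls lost without any one of 9 and 4 of the libraries, where the values ran from -0.14 to -0.06 for Scarb1 and from -0.11 to -0.08 for Acsl1. The lowest size for Scarb1 was without scramble replicate 2, at -0.06. Of the 10 other alternatives, 7 ended the Scarb1 call and 3 the Acsl1 call. Without Mettl3 KD replicate 2, 2 genes fell instead of 4.

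Dpp4, the membrane peptidase that cleaves the incretin hormones, was close to absent. Its counts were 1, 1, 0 and 2 in Mettl3 KD, 1, 0, 1 and 0 in Mettl14 KD, and 1, 7 and 1 in scramble. The 7 counts came from scramble replicate 2, the library with endothelial and immune transcripts, and their source was not tested. No fold change is given, since every other library was at 2 counts or fewer. In the mouse genome Dpp4 lies beside Gcg, the glucagon gene and the most abundant tested transcript per length in scramble, and Fap, a relative of Dpp4, lies on the other side of Gcg. Fap was near 0 as well, with at most 3 counts in any library. Intracellular relatives were well expressed, with 39.1 CPM per kilobase for Dpp9, 17.2 each for Dpp8 and Dpp7 and 9.79 for Prep in scramble. Of 8 genes of the family 6 were tested. In Mettl3 KD 2 rose (Dpp7 at 0.18, Prep at 0.10) and 1 fell (Dpp10 at -0.17), where 31.3% of all tested genes were called. In Mettl14 KD 1 rose (Dpp7 at 0.17), where 20.9% of all tested genes were called. Each of these 4 calls ended without at least 1 library: Dpp10 without scramble replicate 2, at -0.12, Dpp7 in Mettl3 KD without Mettl3 KD replicate 1, at 0.15, Prep without any one of 3 libraries, at 0.09 to 0.10, and Dpp7 in Mettl14 KD without any one of 8. The replicate block also ended the Prep call, at 0.10, and 5 of the 10 other alternatives the Dpp7 call in Mettl14 KD. Without scramble replicate 3, Dpp9 was also called lower in Mettl3 KD, at -0.13.

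The secreted markers were not detectable or barely so. Gc, the vitamin D binding protein, had 0 counts in all 11 libraries, which at 3 counts allows up to 0.134 to 0.15 CPM per library, or 0.0124 CPM over all of them. These limits cover counting error only. Loxl4, a lysyl oxidase that crosslinks collagen and elastin, had 0, 1, 1 and 1 counts in Mettl3 KD, 0, 1, 2 and 0 in Mettl14 KD, and 2, 2 and 1 in scramble. Differences of this size are not detectable at this depth. Neither gene shared a 31-base word with the transcripts of another gene.

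**Figure D4:**
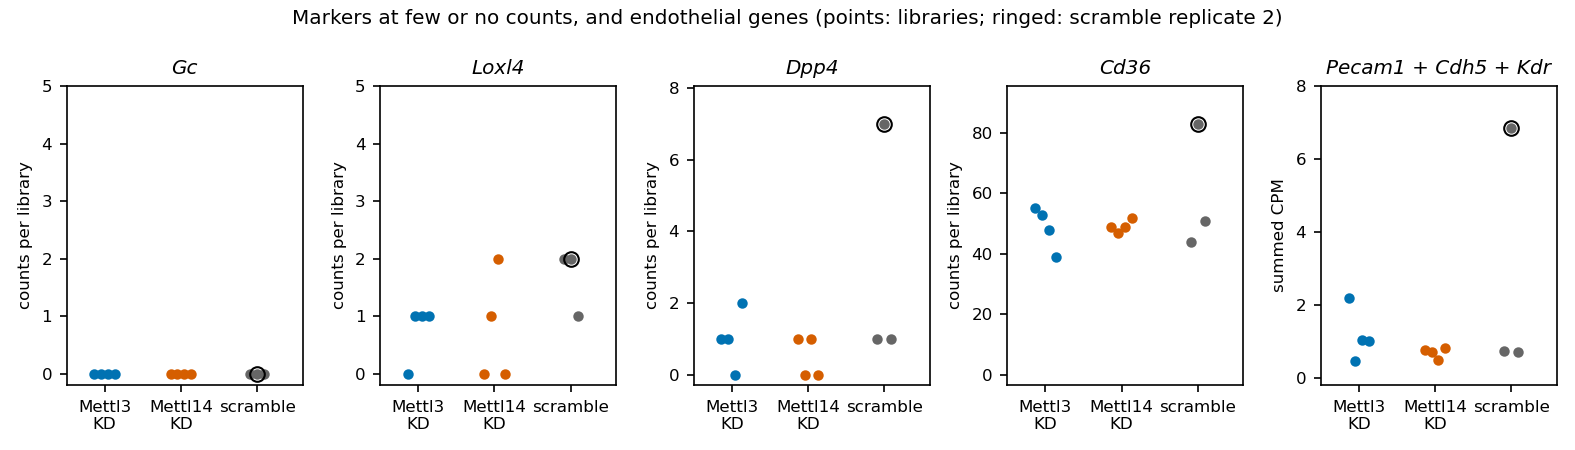
Counts per library (y axis) of Gc, Loxl4, Dpp4 and Cd36, and the summed level in CPM of the endothelial genes Pecam1, Cdh5 and Kdr, in Mettl3 KD, Mettl14 KD and scramble, with scramble replicate 2 ringed. That library holds the highest Dpp4 count (7), the highest Cd36 level (4.15 CPM) and the highest endothelial sum (6.84 CPM).

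Of the lysyl oxidases, Loxl2 and Loxl3 were expressed in this line, and Lox and Loxl1 had at most 11 and 10 counts in any library. Loxl2 had 39.1 ± 1.41 CPM in Mettl3 KD, 41.6 ± 1.40 CPM in Mettl14 KD and 48.8 ± 1.73 CPM in scramble (SD, n = 4, 4 and 3), and fell in both, at log2 fold changes of -0.32 ± 0.04 in Mettl3 KD and -0.23 ± 0.04 in Mettl14 KD (edgeR adjusted p = 1.29e-05 and 0.000686). Loxl3 fell in Mettl3 KD, at -0.78 ± 0.18 (adjusted p = 0.00258), with 1.59 ± 0.369 CPM in Mettl3 KD, 2.13 ± 0.0214 CPM in Mettl14 KD and 2.73 ± 0.572 CPM in scramble. In Mettl14 KD it was not called, at -0.36 and adjusted p = 0.155, but was called without scramble replicate 2, at -0.51 and adjusted p = 0.0347, which made 2 lysyl oxidases lower there instead of 1. Of the albumin family and the genes that handle vitamin D, 2 of 7 were tested. Alb, a close relative of Gc that carries fatty acids and hormones in blood, had 0.725 ± 0.10 CPM in Mettl3 KD, 1.40 ± 0.194 CPM in Mettl14 KD and 1.44 ± 0.205 CPM in scramble. It fell in Mettl3 KD at -0.99 ± 0.22 (edgeR adjusted p = 0.00173) and was lower in Mettl3 KD than in Mettl14 KD, at -0.95 ± 0.21 (adjusted p = 0.00588), on 14 to 19 counts per Mettl3 KD library.

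Set on one scale of CPM per kilobase of the longest coding transcript, the markers spanned from Ttyh1 to undetected Gc. In scramble the mean level was 54.6 for Ttyh1, 11.6 for Tm4sf4, 8.21 for Sstr3, 4.96 for Gria2, 3.95 for Gria3, 0.827 for Cd36, 0.275 for Sstr2, 0.0279 for Dpp4 and 0.021 for Loxl4. Dpp4 and Loxl4 are not separable at 9 and 5 counts in total over the scramble libraries, and without scramble replicate 2 they stood at 0.00855 and 0.0181, on 2 and 3 counts. Without that library Cd36 stood at 0.63, and the order of the others was kept. The same scale put Gcg at 30900 and Irx2, a transcription factor gene of alpha cells, at 73.9, above every marker. Ranked among 12195 tested genes, Ttyh1 was 1270th, Tm4sf4 5470th, Sstr3 6648th, Gria2 8124th, Gria3 8640th, Cd36 10728th and Sstr2 11565th. The order depends on which transcript sets the length. With the shortest complete coding transcript, Ttyh1 stood at 160, above Irx2 at 73.9. Gria2 then stood at 12.8, above Tm4sf4 at 11.6 and Sstr3 at 8.21.

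**Figure D5:**
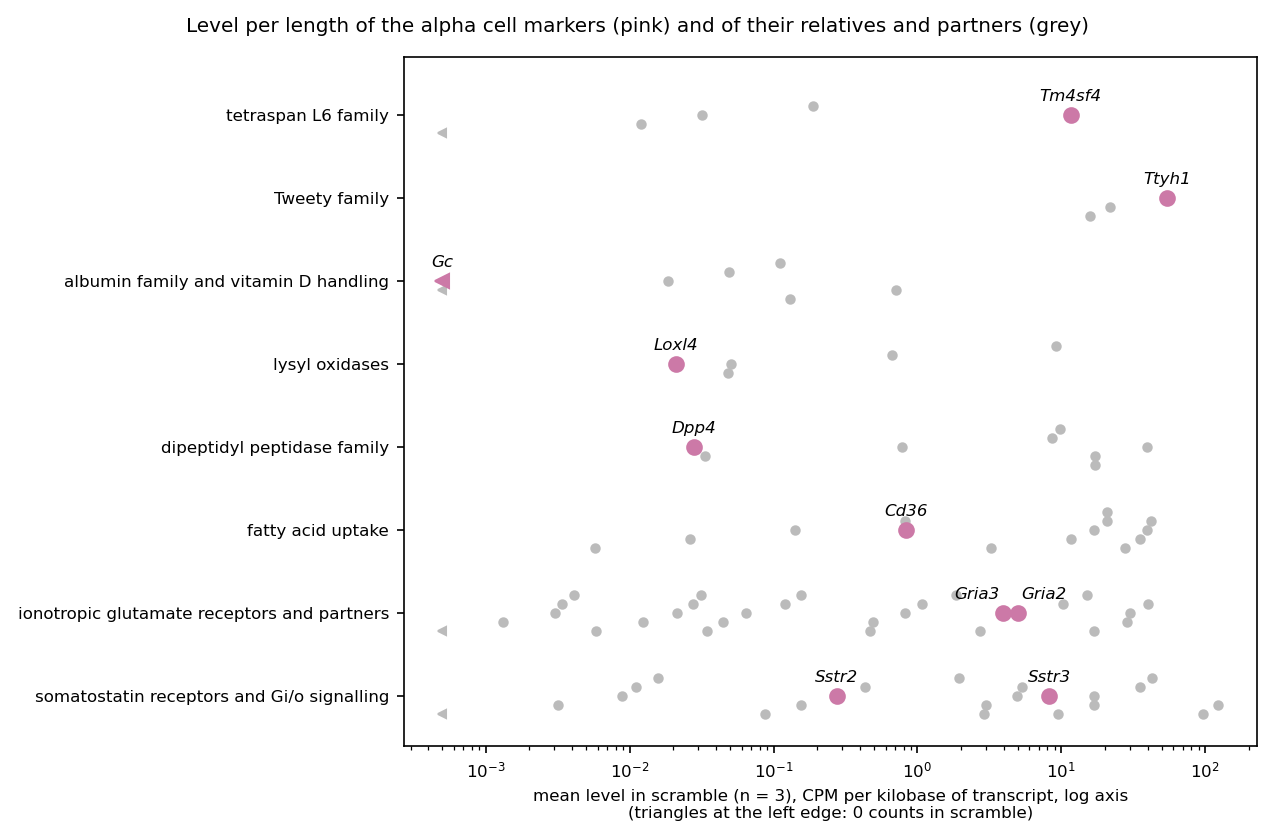
Mean level in scramble (n = 3) in CPM per kilobase of the longest coding transcript (x axis, log scale) of the 10 markers, in pink and named, and of their relatives and partners, in grey, by family. Ttyh1 and Tm4sf4 are the highest of their families, while Loxl4 and Dpp4 lie at 0.021 and 0.0279 (0.0181 and 0.00855 without scramble replicate 2) and Gc is at 0, drawn at the left edge.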

How the data were processed

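The authors deposited 1 table of estimated counts per gene for all 11 libraries; kallisto is named in the submitters' processing notes, and no source used here gives its version, the build or the strand setting. Of its 53947 rows, 48651 have a symbol and the rest hold 0.518% of the counts; 11.6% of values were not whole, and all were rounded to whole numbers. Genes were filtered with edgeR's filterByExpr (minimum count 10), scaled by TMM and tested in R 4.3.3 with the quasi-likelihood test of edgeR 4.0.16: 1 robust fit over 11 libraries with a mean per group, Benjamini-Hochberg over 14133 genes, threshold 0.05. CPM values are TMM-scaled. The script was tested on simulated data. Alternatives used DESeq2 1.42.0, limma 3.58.1, other scalings and filters, a replicate block, and leaving out each library.

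The markers and gene lists were chosen with earlier results of these data known. All 10 markers are named; a relative or partner could be named where it passed against scramble, or as a family level. GENCODE M21 (GRCm38) gave names, transcript lengths, shared words and GGACT copies. Replicate pairs all differed by more than sampling noise (lowest chi-square per degree of freedom 2.11). At 3 counts, a gene with none could reach 0.15 CPM in a library.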

Additional observations from a re-analysis of the deposited data

Results flagged for a closer look

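Of 18 marker and group combinations with 4 libraries, 2 had a library far from the others by Dixon's criterion. For normally distributed values, chance meets it in about 1 of 20. Ttyh1 in Mettl14 KD replicate 3 was at 193 CPM, against 208 to 210 CPM in the other 3 libraries of that group. Loxl4 in Mettl3 KD replicate 1 was at 0 CPM, against 0.0445 to 0.0447 CPM in the others, a difference of 1 count. That rate does not apply to counts this low.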

How the results depend on the processing

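Of 441 marker values under alternatives, 420 kept direction and side of the threshold, 1 lost its call (Sstr2 in Mettl3 KD, DESeq2), 5 gained one and 15 changed sign, none of the 15 called. Against scramble, Gria2 in Mettl3 KD was 0.003 with no filter, 0 with DESeq2 and 0.005 with only the groups compared, and Sstr3 in Mettl14 KD was -0.01 with quality weights in limma-voom. Leaving out 1 library gave -0.551 to 0.022 for Cd36 and -0.049 to 0.045 for Gria2 in Mettl3 KD, and -0.499 to 0.076 for Cd36 and -0.007 to 0.047 for Sstr3 in Mettl14 KD. For Mettl3 KD against Mettl14 KD it gave -0.017 to 0.048 for Tm4sf4 and -0.117 to 0.041 for Cd36. Besides Cd36 without scramble replicate 1, the gained calls were all Ttyh1 between the knockdowns: with quality weights (adjusted p = 0.0311), with only the groups compared (0.0117), and without scramble replicate 2 or Mettl14 KD replicate 3. The cause was not tested.

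Genes called between the knockdowns numbered 1145, 1868 with quality weights, 2154 with only the groups compared, and 710 to 2125 with 1 library left out, the highest without scramble replicate 2. Called markers ranged from 3 to 5 in Mettl3 KD, were 3 in Mettl14 KD and ranged from 2 to 3 between the knockdowns. Replicate numbers did not pair the libraries: same-numbered deviations correlated at -0.118 to 0.0674 over 10 pairs, and 2 of 11 libraries correlated best with their own number. With the replicate block 4, 3 and 2 markers were called in the same 3 comparisons, among 3784, 2335 and 839 genes. Depth limits Sstr2, Cd36, Dpp4, Loxl4 and Gc most.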
